A study of Mus musculus with 32 samples.

Results

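The genes of the 2-cell-like state described here are the mouse Zscan4, Usp17l, Tcstv and Tdpoz families, Zfp352 and Duxf3, taken by gene name from every deposited expression table. In all, 21 such genes had a row in at least 1 of the 5 tables, of 17440 genes with a row. They were 9 Zscan4 genes, 5 Usp17l genes, 5 Tdpoz genes, Tcstv3 and Zfp352. Duxf3, Tcstv1, Tdpoz1, Tdpoz2 and Usp17le-ps had no row and were not analysed here. The table of the Chd4 hairpin listed 21 of these members among 16381 genes and the table of CTCF degradation 12 among 14267. The table of RAD21 degradation listed 11 among 14277, that of CTCF degradation in serum 8 among 14795, and that of CTCF overexpression 4 among 14970.

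All 32 libraries were RNA-seq of E14, a mouse embryonic stem cell line, in 16 groups of 2 libraries. CTCF is the zinc finger protein that stops loop extrusion at its binding sites, and RAD21 is a subunit of cohesin, the complex that extrudes the loops. In the CTCF AID cells CTCF carried an auxin-inducible degron and was removed with 500 µM IAA, an auxin, for 0, 12 or 24 h, and in a separate set for 0 or 12 h in serum. In the RAD21 AID cells RAD21 was removed with 1 µM 5-Ph-IAA for 0, 12 or 24 h. The hairpin libraries, also of the CTCF AID genotype, carried a control hairpin or a hairpin against Chd4, the ATPase of the NuRD chromatin remodelling complex, with neither time nor dose given. The last set carried an overexpression control, wild-type CTCF or mutated CTCF in CTCF AID cells, each without and with IAA, for 12 h where a time is given. In this set the 2 libraries titled as mutated CTCF without IAA carry a label of 12 h with IAA, and the 2 titled as wild-type CTCF with IAA carry an untreated label. The titles were followed, and if the labels hold, the IAA comparisons with wild-type and with mutated CTCF each set libraries of the same treatment against each other. The growth protocol describes serum-free medium for all libraries, although 4 are labelled as serum cultures. Nothing in the labels says that 2 libraries of a group came from separate cultures, so the p-values measure only the spread between these libraries, which may be technical.

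In cultures of mouse embryonic stem cells, rare cells pass through a state in which transcripts of the 2-cell embryo return. The homeobox factor Dux, for which Duxf3 is an annotated copy, is the known activator of that state and lies downstream of Dppa2 and Dppa4. Zscan4 proteins, which carry a SCAN domain and zinc fingers, lengthen telomeres in these cells and are the usual marker of the state. Usp17l genes encode deubiquitinating enzymes, Tdpoz genes encode TRAF and POZ domain proteins, Tcstv genes are expressed in the 2-cell embryo, and Zfp352 is a zinc finger gene of the same stage. In bulk RNA, a larger number of cells in this state and more RNA per cell cannot be told apart.

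The families are arrays of near-identical copies, and this bears on every single-copy value below. In the GENCODE M21 annotation of GRCm38 the 9 Zscan4 genes lay within 0.82 Mb at chr7:10794242-11614112. The 5 Usp17l genes lay within 1.61 Mb at chr7:103249737-104862667, and the 5 Tdpoz genes within 1 Mb at chr3:93068823-94072644. Zfp352 is at chr4:90218820-90225702 and Tcstv3 at chr13:120316878-120318178. Of the 50-base words in the exons of Zscan4c, 85.5% also occurred in another annotated gene. The same share was 86.8% for Zscan4f, 89.0% for Zscan4e and 49.6% for Zscan4d, the most distinct of the 4. It was between 20.1% and 51.1% for the Usp17l genes and 7.1% for Zfp352. Tdpoz5 and Tdpoz7 shared every such word, and their values were identical in the 4 libraries of the Chd4 table, so they are 1 measurement under 2 names. The submitters' processing notes name RSEM, a program that shares out reads matching several transcripts, without stating its role, so the split between copies may be an estimate. Sums over a family are therefore given beside the single copies. A sum does not cover words shared with genes outside the families. Tdpoz3 shared 66.2% of its words with another gene but 3.1% with another member, and Tdpoz4 41.2% and 24.7%.

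The following stretches of 80 coding bases show how alike the Zscan4 copies are where a read must be assigned. They run from coding base 681 to 760 in coding exon 3, and capitals mark the bases that differ between Zscan4c, the copy known from embryonic stem cells, and Zscan4d, the copy known from 2-cell embryos. This stretch was chosen as the one with the most differences between these 2 copies.
Zscan4c, chr7:11009156-11009235, plus strand: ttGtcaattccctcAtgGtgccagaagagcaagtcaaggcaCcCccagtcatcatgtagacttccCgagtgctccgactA
Zscan4f, chr7:11401349-11401428, plus strand: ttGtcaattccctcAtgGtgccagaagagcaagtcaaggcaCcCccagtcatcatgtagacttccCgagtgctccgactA
Zscan4d, chr7:11162682-11162761, minus strand: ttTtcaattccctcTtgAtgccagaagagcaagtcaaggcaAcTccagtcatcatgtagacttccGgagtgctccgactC
Zscan4c and Zscan4d differed at 7 of these 80 bases and Zscan4c and Zscan4f at 0. Over the whole coding sequence of 1518 bases, Zscan4c differed from Zscan4f at 6 bases and from Zscan4d at 35.

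Stretches upstream of the starts of Zscan4c, Zscan4d and Zscan4f were also near-identical when aligned on a shared motif. The matched window of Zscan4b was not compared. RefSeq promoter windows of GRCm38.p6, from 250 bases before to 50 bases after each start, were matched for 13 members, with 14 windows in all. The 120-base stretches below, upstream of the annotated start, are aligned on TATAAA, the core of a TATA box, in capitals. Its first base lay 54 bases before the annotated start in Zscan4c and 65 in Zscan4d. In Zscan4f and in Usp17lb it lay 31 bases before.
Zscan4c, chr7:11005591-11005710, plus strand: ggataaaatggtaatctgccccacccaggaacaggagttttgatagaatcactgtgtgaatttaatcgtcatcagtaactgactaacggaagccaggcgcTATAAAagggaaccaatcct
Zscan4f, chr7:11397784-11397903, plus strand: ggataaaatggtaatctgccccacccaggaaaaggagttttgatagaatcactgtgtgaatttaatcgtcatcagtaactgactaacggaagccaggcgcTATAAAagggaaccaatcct
Zscan4d, chr7:11166194-11166313, minus strand: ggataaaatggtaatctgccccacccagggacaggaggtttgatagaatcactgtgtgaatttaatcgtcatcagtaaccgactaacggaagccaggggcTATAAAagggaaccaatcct
Usp17lb, chr7:104842595-104842714, minus strand: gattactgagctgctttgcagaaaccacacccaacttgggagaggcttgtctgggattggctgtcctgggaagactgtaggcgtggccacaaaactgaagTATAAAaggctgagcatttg
The Zscan4c and Zscan4f stretches differed at 1 base of 120, Zscan4c and Zscan4d at 4, and Zscan4c and Usp17lb at 80. TATAAA, searched on both strands, was present in 4 of 4 Zscan4 windows, in 3 of 4 Usp17l windows (not that of Usp17la) and in 0 of 6 windows of the other members, against 13.6% of all 32851 windows. Member windows held 0 to 4 CpG dinucleotides, against a median of 7 over all windows, of which 38% held 4 or fewer.

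The annotated Tdpoz5 and Tdpoz7 transcripts were identical over 1023 bases, so their reads cannot be separated. Their promoter windows differed at 1 base of 300, in capitals here. The stretches shown lie upstream of the annotated genes and are not part of the transcripts.
Tdpoz5, chr3:93961347-93961426, minus strand: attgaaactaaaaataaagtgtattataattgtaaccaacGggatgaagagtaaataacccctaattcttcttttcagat
Tdpoz7, chr3:94072677-94072756, minus strand: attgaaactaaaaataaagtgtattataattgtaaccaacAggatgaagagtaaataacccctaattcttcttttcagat

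Values below are the authors' normalised counts, whose totals per library were 15364584 to 19642332. Differences are limma estimates on the scale log2(value + 1), which understates the change of low genes, with p-values adjusted over all genes tested in a table. A gene was tested where its mean over the table was at least 10 and called where its adjusted p was under 0.05. The targeted gene Chd4 had 9923 and 9526 normalised counts with the control hairpin and 3379 and 3729 with the Chd4 hairpin, a log2 difference of -1.45 (adjusted p = 4.95e-06). Degradation acts on protein, so the mRNA does not check it. Ctcf mRNA in CTCF AID cells averaged 3277 at 0 h and 4014 at 12 h (log2 difference 0.29, adjusted p = 0.00834), and Rad21 mRNA in RAD21 AID cells averaged 4338 at 0 h and 4135 at 12 h, which was not called.

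With the Chd4 hairpin every Zscan4 gene that could be tested rose, and so did every Usp17l gene. Summed over its 9 members, Zscan4 was 92.7 and 111 with the control hairpin and 1539 and 1550 with the Chd4 hairpin, means of 102 ± 13.0 and 1545 ± 7.87 (SD, n = 2). Usp17l summed over 5 members went from 28.4 and 59.8 to 625 and 755, and Tdpoz summed over 5 members from 4.49 and 3.53 to 118 and 140. The libraries of both groups lay far apart for each of these sums. By limma, 16 of 16 tested members were called higher and none lower, in a comparison in which 33.5% of all tested genes were called higher, 33.8% lower and 67.4% in either direction. Of the 16 members, 10 had a control mean under 10 and passed the filter only through the hairpin libraries, so they had to differ. The other 6 had a control mean of at least 10, and all 6 were called higher, with log2 differences of 2.79 to 3.85. The median over the 16 was 3.84, or 3.76 with Zscan4b at its bound, against 0.006 over all genes tested. The highest-ranked member by log2 difference, Usp17la, stood at rank 60 of 15499. Median and rank include the 10 members that had to differ, Usp17la among them, so both only describe the values.

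**Figure D1:**
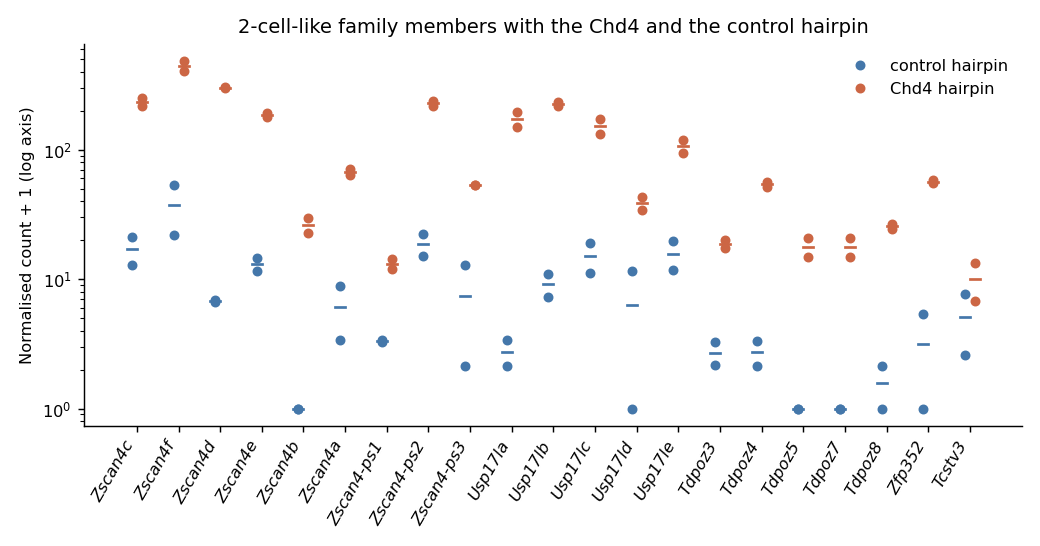
Normalised counts of the members in each of the 4 libraries of the Chd4 table, on a log axis of value + 1, with 1 point per library for the control hairpin and the Chd4 hairpin. The groups are apart for every member but Tcstv3, whose libraries overlap.

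Zscan4f was the highest copy per exonic length in both groups. It had 21.1 and 52.2 normalised counts with the control hairpin and 407 and 481 with the Chd4 hairpin, a log2 difference of 3.69 (SE 0.38, adjusted p = 0.000183). Its 2 control libraries were themselves apart, but both lay far below the hairpin libraries. Zscan4c had 20.1 and 11.8 in the control and 249 and 215 with the hairpin, a log2 difference of 3.82 (SE 0.29, adjusted p = 4.71e-05). Zscan4e went from 13.4 and 10.6 to 179 and 192, by 3.85 on the log2 scale (SE 0.24, adjusted p = 2.18e-05). Zscan4-ps2, annotated as protein coding in M21 despite its name, went from 21.3 and 14.1 to 237 and 216 (log2 difference 3.63, adjusted p = 3.33e-05). These 4 copies shared 85.5% to 89.0% of their 50-base words with other genes, so their closely matched log2 differences are not independent of each other.

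Zscan4d, the copy of the 2-cell embryo, had the largest log2 difference among the tested Zscan4 genes that were above 0 in the control. It had 5.60 and 5.89 normalised counts with the control hairpin and 304 and 296 with the Chd4 hairpin, a log2 difference of 5.48 (SE 0.23, adjusted p = 5.64e-06). In both groups the 2 libraries were close to each other. Zscan4a, which M21 annotates as a pseudogene, went from 7.83 and 2.36 to 69.9 and 62.7 (log2 difference 3.63, SE 0.50, adjusted p = 0.000668). Zscan4-ps3 went from 1.12 and 11.8 to 52.4 and 52.8 (log2 difference 3.36, SE 0.78, adjusted p = 0.00758), and its standard error reflects 2 unlike control libraries. Zscan4b was listed at 0 in both control libraries and at 28.6 and 21.5 with the hairpin, at least 8.36-fold higher against a floor of 3 normalised counts per library (adjusted p = 0.000239). Zscan4d, Zscan4a, Zscan4-ps3 and Zscan4b had control means under 10 and passed the filter only through the hairpin libraries, so they had to differ. Zscan4-ps1, the lowest copy, had 2.24 and 2.36 in the control and 11.0 and 13.2 with the hairpin and was not tested.

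The make-up of the Zscan4 signal also differed between the hairpins. Zscan4d made up 6.04% and 5.30% of the Zscan4 sum in the control libraries and 19.8% and 19.1% in the hairpin libraries, with no overlap. The share of Zscan4f was 22.7% and 47.0% in the control and 26.5% and 31.0% with the hairpin, so its groups overlapped. Zscan4c made up 21.7% and 10.6% in the control and 16.2% and 13.9% with the hairpin, and Zscan4e 14.5% and 9.54% against 11.6% and 12.4%, again overlapping. These shares are descriptions of an estimated split of reads and were not tested.

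**Figure D2:**
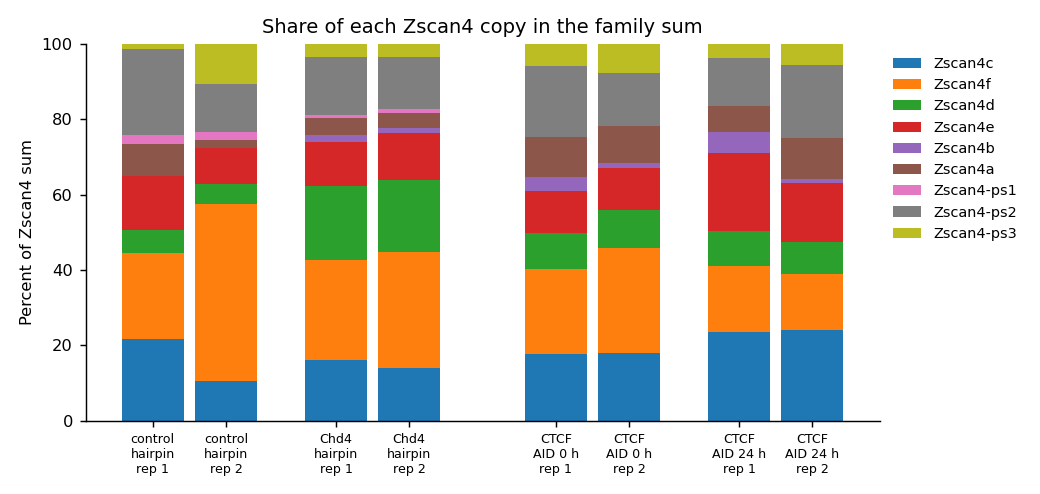
Percent of the summed Zscan4 normalised counts held by each copy, for each library of the Chd4 table and of the CTCF table at 0 h and 24 h. Zscan4d holds 19.8% and 19.1% in the Chd4 hairpin libraries and 6.04% and 5.30% in their controls, and between 8.46% and 10.2% in the CTCF libraries shown.

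Among the Usp17l genes, Usp17la rose most with the Chd4 hairpin. It had 1.12 and 2.36 normalised counts with the control hairpin and 150 and 194 with the Chd4 hairpin, a log2 difference of 6.01 (SE 0.37, adjusted p = 2.03e-05). Usp17lb, the highest of the family per exonic length in the hairpin libraries, went from 6.30 and 9.995 to 217 and 231 (log2 difference 4.65, SE 0.28, adjusted p = 1.93e-05). Usp17lc went from 10.2 and 18.1 to 132 and 171 (log2 difference 3.37, adjusted p = 0.000133). Usp17le went from 10.7 and 18.8 to 93.3 and 117 (log2 difference 2.79, SE 0.33, adjusted p = 0.000331). Usp17ld was listed at 0 and at 10.6 in the control and at 33.1 and 42.1 with the hairpin, with a wide error (log2 difference 3.49, SE 1.04, adjusted p = 0.0213). Usp17la, whose promoter window alone lacked TATAAA among the 4 matched, had the largest log2 difference of its family, and Usp17lb the next. Their control means were 1.74 and 8.15 and that of Usp17ld was 5.30. These genes passed the filter only through the hairpin libraries, so they had to differ. Any relation of TATAAA to the members' differences was not tested.

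The remaining members were lower in level. Tdpoz4 had 1.12 and 2.35 normalised counts in the control and 50.5 and 55.4 with the hairpin (log2 difference 4.34, adjusted p = 0.000134), and Tdpoz8 had 1.13 and 0 against 23.5 and 25.5 (log2 difference 4.13, adjusted p = 0.000629). Tdpoz3, with 2.24 and 1.18 against 16.5 and 19.0, and the identical Tdpoz5 and Tdpoz7, with 0 and 0 against 13.8 and 19.8, were not tested. Zfp352 was listed at 0 and 4.33 in the control and at 53.9 and 57.6 with the hairpin (log2 difference 4.62, SE 0.76, adjusted p = 0.00157). Tcstv3 was the exception, with 1.596 and 6.668 in the control and 12.3 and 5.82 with the hairpin, so its groups overlapped, and it was not tested. Tdpoz4, Tdpoz8 and Zfp352 had control means under 10 and passed the filter only through the hairpin libraries, so they had to differ. Without a filter on low values 20 of the 21 members were called, and 13 of 16 were called without either hairpin library, when Usp17ld, Zfp352 and Zscan4-ps3 were no longer called.

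Per kilobase of exonic length, the order in the Chd4 hairpin libraries was led by Zscan4f at 227 ± 26.4 (SD, n = 2). Usp17lb at 143 ± 6.56 and Zscan4d at 132 ± 2.57 followed. Zscan4e, Zscan4c and Zscan4-ps2 were next at 104 ± 5.13, 102 ± 10.5 and 99.5 ± 6.56, which do not differ beyond their spread. In the control hairpin libraries Zscan4f again led at 18.7 ± 11.2 per kilobase, while Zscan4d stood at 2.53 ± 0.0921.

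Other genes known from the 2-cell stage moved the same way with the Chd4 hairpin. A list of 41 such genes outside these families had 26 rows and 22 tested genes, of which 19 rose and 3 fell (Snai3, Obox6 and Pramef12), with a median log2 difference of 4.04, or 3.85 with controls at 0 set to their bound. Of the 22, 13 had a control mean under 10 and passed the filter only through the hairpin libraries, so they had to differ, and of the other 9, 6 rose and 3 fell. Gm8300 had 6.72 and 9.42 normalised counts in the control and 1096 and 1122 with the hairpin (log2 difference 6.95, adjusted p = 2.2e-06). Gm2016 went from 23.5 and 22.4 to 2202 and 2004 (log2 difference 6.46), Trim43a from 2.08 and 1.10 to 311 and 297 (6.91), and Gm4340, listed at 0 in both controls, was at least 37.5-fold higher. Many of these are themselves members of multi-copy families. Over all genes tested, 33.5% were called higher and 33.8% lower. Marker lists of other states moved in the same libraries, and in those lists too some genes passed the filter only through the hairpin libraries: 1 germline gene, 3 primitive endoderm markers, 1 trophoblast marker and 1 fibroblast marker had a control mean under 10. Of 12 germline genes, 10 rose and 2 fell, among them Taf7l, a testis TFIID subunit (log2 difference 4.78), Tuba3b (3.15) and Dazl, a germ cell RNA-binding protein (2.46). Of 10 tested primitive endoderm markers, 7 rose and 3 fell, with Dab2 at 7.79, while Gata4 (-2.14) and Sox17 (-1.94), which help define that lineage, were among those that fell. Of 8 trophoblast markers 4 rose and 1 fell (Krt8 2.40, Krt18 2.30), and of 3 fibroblast markers 2 rose. Of 12 pluripotent stem cell markers 2 rose and 8 fell, led by Dppa5a (-1.28) and Klf2 (-1.25). The summed level of the germline list was 4370 to 4570 in the control and 16357 to 17694 with the hairpin, and that of the pluripotency list 129728 to 131590 and 82465 to 83785. The part of these other states in the members' values was not tested.

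The annotated neighbours of the arrays were measured in the same fit, within 500 kb on each side. Near Zscan4, 1 of 2 tested genes rose, Gm17737 (4.06 to 128 on average, log2 difference 4.74), and Zik1 was not called. Near Usp17l, 5 of 7 rose and 1 fell, and near Tdpoz 9 of 15 rose and 3 fell. The Tdpoz neighbours that rose included Spopfm1, Spopfm2 and Spopfm3, relatives of Spop that also encode POZ domain proteins. Many of the neighbours that rose had a control mean under 10 and passed the filter only through the hairpin libraries, so they had to differ. These were Gm17737 near Zscan4, and Trim30a and Gm16464 near Usp17l. Near Tdpoz they were Them5, Tchh, Gm9113, Gm5541, Spopfm1, Spopfm2 and Spopfm3. Over all genes 33.5% were called higher, and the difference of the neighbours' counts from that share was not tested.

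Part of the Zscan4 family was lower after loss of CTCF. Every IAA library was of CTCF AID cells, so an effect of IAA itself cannot be told apart from CTCF loss. At 0 h the 8 listed Zscan4 genes summed to 599 and 591 normalised counts, at 12 h to 374 and 385, and at 24 h to 245 and 266, means of 595 ± 5.86, 379 ± 7.63 and 256 ± 14.2 (SD, n = 2). The 3 groups did not overlap, and each was lower than the one before. At 12 h, 2 of 11 tested members were called lower, Zscan4c and Zscan4f, where 8.40% of all genes were called lower and 9.39% higher, and 3 of 11 had an unadjusted p under 0.05. The groups did not overlap, with the 12 h libraries lower, for 9 of 11 members against 30.7% of all genes. The median log2 difference of the members was -0.54, against 0.0005 over all genes. At 24 h, 5 of 11 were called lower (Zscan4a, Zscan4d, Zscan4f, Zscan4-ps2 and Zscan4-ps3), where 10.8% of all genes were called lower, 11.7% higher and 22.5% in either direction. In that comparison 9 of 11 members had lower libraries that did not overlap the 0 h ones, against 31.3% of all genes, and the median was -0.97. Both comparisons share the 0 h libraries.

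Zscan4f had the largest log2 difference of the members at 24 h of CTCF loss, and Zscan4c at 12 h. It had 134 and 164 normalised counts at 0 h, 84.8 and 77.4 at 12 h and 43.4 and 39.5 at 24 h. Its log2 differences from 0 h were -0.86 at 12 h (adjusted p = 0.0281) and -1.82 at 24 h (SE 0.20, adjusted p = 0.00128), and the 3 groups did not overlap. Zscan4c had 107 and 106 at 0 h, 38.7 and 64.1 at 12 h and 57.5 and 64.1 at 24 h. It was lower at 12 h by -1.08 (SE 0.27, adjusted p = 0.0356), while at 24 h its difference of -0.80 was not called (adjusted p = 0.0775), although both 24 h libraries lay below both 0 h libraries. The 12 h call of Zscan4c was lost with quantile normalisation (log2 difference -0.90, adjusted p = 0.061).

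The other copies that were called only at 24 h had intermediate or overlapping values at 12 h. Zscan4d had 57.5 and 60.5 normalised counts at 0 h, 61.6 and 36.4 at 12 h and 22.6 and 22.5 at 24 h, a 24 h difference of -1.35 (SE 0.31, adjusted p = 0.022). Zscan4-ps2 had 112 and 83.3, then 55.6 and 64.9, then 31.6 and 51.7 (24 h difference -1.24, adjusted p = 0.0263). Zscan4a had 63.8 and 57.9, then 48.7 and 34.6, then 16.9 and 29.2 (24 h difference -1.41, adjusted p = 0.0266), and Zscan4-ps3 had 35.55 and 45.6, then 21.9 and 35.50, then 9.03 and 14.6 (24 h difference -1.72, adjusted p = 0.0219). Zscan4e was the tested copy of this array with the smallest difference at both times, with 66.9 and 65.6 at 0 h, 60.5 and 64.7 at 12 h and 50.9 and 41.8 at 24 h (24 h difference -0.51, adjusted p = 0.143). Zscan4b, with 2.26 to 23.0 over the 6 libraries, was not tested. Of these calls, only that of Zscan4f at 24 h held without each library in turn: 1 of 11 members was called without the first 24 h library or without either 0 h library, and 4 without the second 24 h library. At 12 h, 0 members were called without either 0 h library or the first 12 h library, and 1 without the second.

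No Usp17l gene passed the test after CTCF loss, although Usp17le did at 24 h with a pseudocount of 10 (log2 difference -0.75, adjusted p = 0.0484). Their sum over 4 genes was 159 and 141 normalised counts at 0 h, 112 and 117 at 12 h and 131 and 108 at 24 h. Usp17lb had 56.6 and 44.6, then 29.0 and 40.1, then 38.4 and 37.3, with all IAA libraries below both 0 h libraries. Usp17le had 44.1 and 41.2, then 22.0 and 28.8, then 19.6 and 23.2 (24 h difference -0.97, adjusted p = 0.0599), likewise without overlap. Usp17la had 34.5 and 25.5, then 38.8 and 26.0, then 42.8 and 32.5, with overlapping groups, and was the 1 tested member whose log2 difference was above 0 at both times. Usp17lc had 23.4 and 29.9, then 22.3 and 22.0, then 30.6 and 15.1, so that its 12 h libraries lay just below and its 24 h libraries overlapped the 0 h libraries. The Tdpoz genes, Zfp352 and Tcstv3 had no row in this table.

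Between 12 h and 24 h of CTCF loss no member was called by limma, and 4 of 11 had an unadjusted p under 0.05. Only 0.146% of all genes were called in either direction in that comparison. The 24 h libraries were lower without overlap for 6 of 11 members, against 21.8% of all genes, and the median log2 difference was -0.43. Within the Zscan4 sum, Zscan4f made up 22.3% and 27.8% at 0 h and 17.7% and 14.9% at 24 h. Zscan4c rose in share from 17.8% and 18.0% to 23.4% and 24.1%, and Zscan4e from 11.2% and 11.1% to 20.7% and 15.7%, each without overlap and untested. The share of Zscan4d, 9.60% and 10.2% at 0 h, was 9.19% and 8.46% at 24 h.

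Other genes of the 2-cell stage moved less uniformly after CTCF loss. At 24 h, 12 were tested, 2 rose (Ddit4l 0.98, Obox6 0.96) and 3 fell, among them Gm5039 (55.1 to 14.3 on average, log2 difference -1.90) and Gm12794 (-1.69). At 12 h, 1 rose and 1 fell. Over all genes tested, 9.39% were called higher and 8.40% lower at 12 h, and 11.7% higher and 10.8% lower at 24 h. Among germline genes 5 of 10 fell at 24 h and none rose, with Tuba3b at -1.70, Taf7l at -1.35, Sycp3 at -1.26 and Dazl at -0.57; at 12 h, 2 fell. Of 12 pluripotent stem cell markers 2 rose and 4 fell at 24 h, with Dppa5a at -0.50 as the largest difference among those with high levels. Of 5 tested primitive endoderm markers 1 rose, Lama1 (0.79), of 6 trophoblast markers 1 rose, and of 3 fibroblast markers 1 fell, Pdgfrb (-1.76). Near the Zscan4 array the 1 tested neighbour, Zik1, was not called (log2 difference -0.30), near Usp17l 2 of 4 tested neighbours rose (Trim12c 0.52, Trim6 0.36), and near Tdpoz 3 of 7 rose, against 11.7% of all genes.

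Loss of RAD21 did not move any member past the test at 12 h or 24 h against 0 h. The 7 listed Zscan4 genes summed to 116 and 170 normalised counts at 0 h, 187 and 184 at 12 h and 109 and 92.8 at 24 h, means of 143 ± 38.4, 186 ± 1.73 and 101 ± 11.5 (SD, n = 2). The 12 h libraries lay above and the 24 h libraries below both 0 h libraries, though one 0 h library was close to each. The 4 listed Usp17l genes summed to 59.1 and 46.1 at 0 h, 75.9 and 96.5 at 12 h and 46.5 and 63.2 at 24 h. At 12 h, 0 of 9 tested members were called by limma, where 13.0% of all genes were called in either direction, 6.66% higher and 6.35% lower, and 1 had an unadjusted p under 0.05. The log2 difference was positive for all 9, with a median of 0.68, and the 12 h libraries were higher without overlap for 5 of 9, against 30.1% of all genes. At 24 h, 0 of 9 were called by limma against 13.7% of all genes, 6.54% higher and 7.16% lower, 1 had an unadjusted p under 0.05, 3 values were higher and 6 lower, and the median was -0.29. Both comparisons share the 0 h libraries.

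Zscan4a had the largest log2 difference at 12 h of RAD21 loss, with 7.12 and 6.74 normalised counts at 0 h, 16.9 and 17.6 at 12 h and 6.62 and 12.9 at 24 h (12 h difference 1.20, adjusted p = 0.156). Zscan4c had 16.9 and 27.0, then 44.97 and 30.29, then 19.8 and 16.8 (12 h difference 0.76, adjusted p = 0.232). Usp17la had 13.4 and 16.9, then 26.2 and 26.4, then 5.51 and 16.8, and Usp17lb 18.5 and 11.2, then 23.3 and 28.8, then 13.8 and 19.6. For these 4 genes both 12 h libraries lay above both 0 h libraries. Zscan4f, with 25.2 and 46.8 at 0 h and 37.9 and 44.8 at 12 h, and Zscan4d, with 15.1 and 22.5 at 0 h and 25.3 and 19.5 at 12 h, overlapped between the groups.

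Between 12 h and 24 h of RAD21 loss Zscan4-ps2 fell. It had 23.2 and 36.0 normalised counts at 0 h, 27.2 and 45.9 at 12 h and 9.92 and 9.90 at 24 h. Its difference between 24 h and 12 h was -1.74 (SE 0.41, adjusted p = 0.0308), while that between 24 h and 0 h was -1.45 and not called (adjusted p = 0.0592). It was 1 of 9 tested members called lower, where 8.26% of all genes were called lower, and the call was lost without any 1 of the 4 libraries. The 24 h libraries lay below the 12 h libraries without overlap for 7 of 9 members, against 30.0% of all genes, and the median log2 difference was -0.68. Zscan4-ps2 shared 87.6% of its 50-base words with other genes, so this value may include reads of other copies.

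Some germline genes and genes of the 2-cell stage outside the families were higher at 12 h of RAD21 loss. Of 12 tested 2-cell-stage genes outside the families, 2 rose and none fell, Ddit4l (83.6 and 51.2 to 209 and 212, log2 difference 1.67, adjusted p = 0.0314) and Usp26 (0.97, adjusted p = 0.012). The call of Ddit4l was lost with the replicate number as a block (adjusted p = 0.0558) and without any 1 of the 4 libraries (adjusted p 0.0577 to 0.136). The call of Usp26 was lost without either 0 h library or the first 12 h library (adjusted p 0.0578 to 0.0703). Of 12 germline genes 5 rose and none fell at 12 h, where 6.66% of all genes were called higher, with Tuba3b at 2.06, Slc25a31 at 1.86, Mael at 1.41 and Dazl at 1.06. Between 12 h and 24 h 5 germline genes fell (Tuba3b -2.20, Dazl -1.10), and of the 2-cell-stage genes Gm2016 fell (-1.09, adjusted p = 0.0425). The summed level of the germline list was 8014 to 8471 at 0 h and 12235 to 12797 at 12 h. Over all genes tested, 6.35% were called lower at 12 h and 8.26% between 12 h and 24 h. Of 12 pluripotent stem cell markers 2 rose and 6 fell at 12 h, of 8 primitive endoderm markers 2 rose, of 7 trophoblast markers 2 fell, and of 3 fibroblast markers none was called. Their part in the members' values was not tested.

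**Figure D3:**
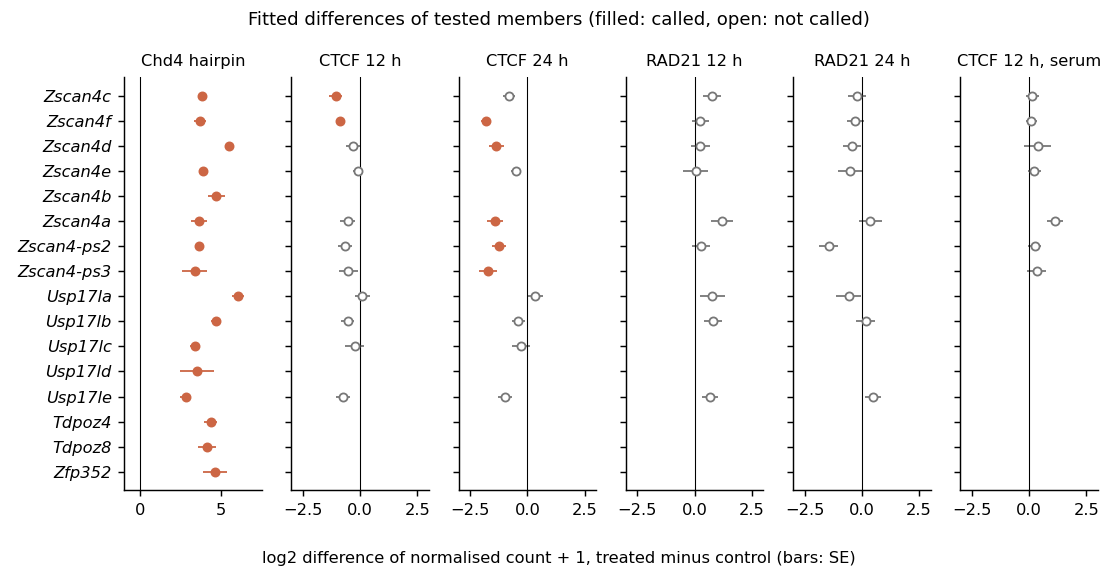
Log2 differences of each tested member, on the log2(value + 1) scale, for the Chd4 hairpin, for CTCF loss at 12 h and 24 h, for RAD21 loss at 12 h and 24 h and for CTCF loss in serum at 12 h, with bars of 1 standard error, called values filled and other values open. The 16 Chd4 values lie between 2.79 and 6.01, the CTCF values at 24 h are below 0 for 10 of 11 members, and no RAD21 value against 0 h is called.

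Set side by side, the 3 perturbations differed in sign and size for the same copies, each within its own table. For Zscan4f the log2 difference was 3.69 with the Chd4 hairpin, -1.82 at 24 h of CTCF loss and within the spread of the libraries at 12 h of RAD21 loss. For Zscan4d it was 5.48 with the Chd4 hairpin and -1.35 at 24 h of CTCF loss. For Usp17la it was 6.01 with the Chd4 hairpin, while the gene was not called after CTCF or RAD21 loss. The tables were normalised separately and hold different libraries, so the differences between perturbations were not tested. The starting levels also differed: the Zscan4 sum was 92.7 and 111 over 9 genes in the control hairpin libraries and 599 and 591 over 8 genes in the 0 h libraries of the CTCF table, although all are of the CTCF AID genotype. That pair of levels comes from separate normalisations and is given only as it stands.

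In serum, no member was called after 12 h of CTCF loss. The 8 listed Zscan4 genes summed to 177 and 156 normalised counts at 0 h and 182 and 199 at 12 h, means of 166 ± 15.2 and 190 ± 12.5 (SD, n = 2). By limma 0 of 7 tested members were called, where 7.73% of all genes were called higher and 9.25% lower, and 1 had an unadjusted p under 0.05. The 12 h libraries were higher without overlap for 2 of 7, Zscan4a and Zscan4-ps2, against 30.1% of all genes, and the median log2 difference was 0.24. Zscan4a had 10.6 and 8.48 at 0 h and 24.2 and 20.2 at 12 h (log2 difference 1.14, SE 0.36, adjusted p = 0.0703). Zscan4f, with 40.03 and 46.36 at 0 h and 40.3 and 53.2 at 12 h, and Zscan4c, with 32.9 and 22.3 at 0 h and 31.3 and 29.0 at 12 h, overlapped between the groups. Of 8 tested 2-cell-stage genes outside the families none rose and 2 fell, Zfp750 (-0.94) and Pramef12 (-0.72).

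The overexpression table listed only Zscan4a, Zscan4c, Zscan4f and Zscan4-ps2, and none reached the mean needed for a test. Their sum was 47.3 and 34.1 normalised counts in the overexpression control and 18.4 and 31.6 with IAA. With wild-type CTCF it was 36.8 and 36.6 without and 29.7 and 37.2 with IAA, and with mutated CTCF 20.7 and 21.7 without and 31.6 and 38.1 with IAA. Zscan4f had 25.4 and 6.93 in the control, 4.59 and 3.71 in the control with IAA, 16.1 and 7.21 with wild-type CTCF, and 9.70 and 1.78 with wild-type CTCF and IAA. It had 5.52 and 0 with mutated CTCF and 8.08 and 21.8 with mutated CTCF and IAA. At these levels a change in a single copy was not detectable. Without a filter on low values, 0 of 4 members were called in each of the 3 comparisons with IAA.

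Dppa2 and Dppa4, the DNA-binding partners that act upstream of Dux and Zscan4, were well above the members in level and could be tested in every table. Dppa2 had 243 and 246 normalised counts with the control hairpin and 953 and 900 with the Chd4 hairpin, a log2 difference of 1.92 (SE 0.08, adjusted p = 6.44e-06). After CTCF loss it had 1368 and 1323 at 0 h, 454 and 445 at 12 h and 427 and 448 at 24 h. Its differences were -1.58 at 12 h (adjusted p = 9.82e-05) and -1.62 at 24 h (adjusted p = 5.61e-05), so its 24 h level was close to that already reached at 12 h, when 2 members were called. After RAD21 loss it had 1089 and 1031 at 0 h, 1020 and 1129 at 12 h and 570 and 578 at 24 h, with a difference of -0.88 at 24 h (adjusted p = 0.00107) and 0.02 at 12 h (adjusted p = 0.897). In serum it was higher at 12 h, 1955 and 1871 against 2612 and 2547 (log2 difference 0.43, adjusted p = 0.000694). In the overexpression control, whose titles and labels agree, its log2 difference with IAA was positive but not called with all libraries in the fit. It was 0.46 without the first control library, so the fall seen after CTCF loss in the CTCF table was not seen there. With IAA it was higher in cells with wild-type CTCF, at 583 and 580 against 459 and 448 (log2 difference 0.36, adjusted p = 0.0316). That call was lost without any 1 of the 4 libraries (adjusted p 0.0861 to 0.122) and rests on titles that disagree with the treatment labels.

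**Figure D4:**
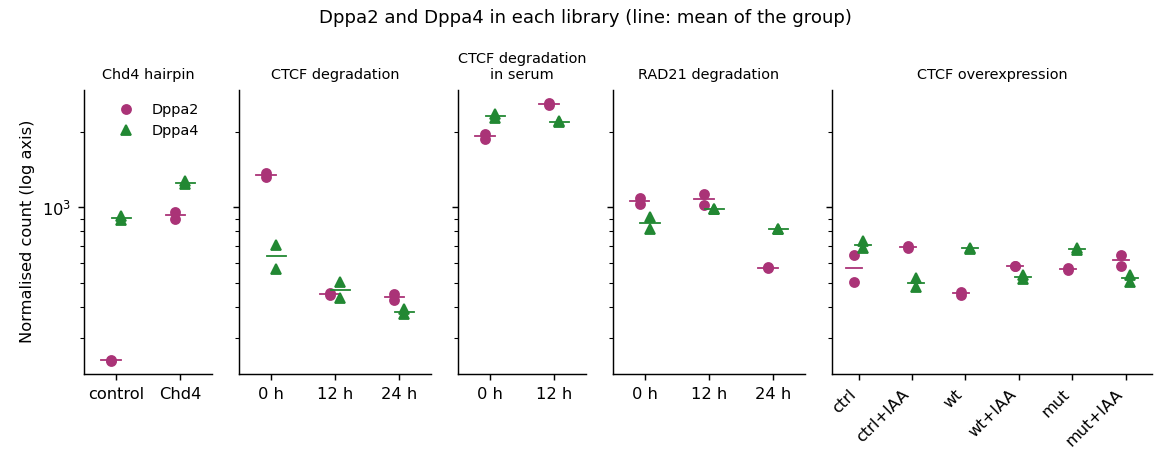
Normalised counts of Dppa2 and Dppa4 in each library of the 5 tables, 1 point per library with the group mean as a line, on a log axis. Dppa2 is at 953 and 900 with the Chd4 hairpin against 243 and 246 in its control, and at 427 and 448 after 24 h of CTCF loss against 1368 and 1323 at 0 h.

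Dppa4 was nearer to its control than Dppa2 with the Chd4 hairpin and after CTCF loss. It had 920 and 891 normalised counts with the control hairpin and 1240 and 1266 with the Chd4 hairpin (log2 difference 0.47, adjusted p = 0.000545). After CTCF loss it had 707 and 567 at 0 h, 434 and 500 at 12 h and 374 and 391 at 24 h, with differences of -0.44 (adjusted p = 0.0576) and -0.73 (adjusted p = 0.00847). It had 817 and 910 at 0 h of RAD21 loss, 984 and 984 at 12 h and 817 and 815 at 24 h. With IAA in the overexpression control it fell from 684 and 734 to 522 and 478 (log2 difference -0.50), and it also fell with wild-type CTCF (-0.38) and mutated CTCF (-0.39). In the last 2 of these comparisons the titles disagree with the treatment labels. Dppa2 and the Zscan4 sum were both higher with the Chd4 hairpin and both lower at 12 h and 24 h of CTCF loss. Both were lower on average at 24 h of RAD21 loss and higher on average at 12 h of CTCF loss in serum. They did not go together everywhere. At 12 h of RAD21 loss the Zscan4 sum averaged 186 against 143 with a Dppa2 difference of 0.02. With wild-type CTCF and IAA Dppa2 was higher while the Zscan4 sums overlapped. In the overexpression control the Zscan4 sum over 4 genes was 47.3 and 34.1 without IAA and 18.4 and 31.6 with IAA. The Dppa2 difference there was positive and not called. The part of Dppa2 in the members' values was not tested.

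The other regulators of the state, from a list of 35 that includes Dppa2 and Dppa4, included genes that rose and genes that fell in most comparisons. With the Chd4 hairpin 13 rose and 15 fell, where 33.5% of all genes were called higher and 33.8% lower. Among those that fell were Uhrf1, which recruits the maintenance DNA methyltransferase (log2 difference -1.49), Chaf1b, a subunit of the chromatin assembly factor whose loss is known to induce the 2-cell-like state (-1.37), and Smchd1, a repressor of Dux (-1.28). After CTCF loss 10 rose and 5 fell at 12 h and 7 rose and 7 fell at 24 h, with Lin28a, an RNA-binding protein, at 1.67 at 24 h. After RAD21 loss 9 rose and 6 fell at 12 h, and none rose and 11 fell at 24 h, where 7.16% of all genes were called lower. In serum 5 rose and 9 fell, where 7.73% of all genes were called higher and 9.25% lower. The NuRD counts that follow stand against the same shares of all genes. Of 14 NuRD genes 4 rose and 6 fell with the Chd4 hairpin, including Chd3, a paralogue of Chd4 (1.82), and Mta1 (-1.12), and at 24 h of CTCF loss 2 rose and 2 fell. At 24 h of RAD21 loss 3 NuRD genes fell and none rose.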

How the data were processed

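The authors deposited 5 tables of normalised counts per gene (signal), 2 libraries per group. Per the submitters' processing notes, Trim Galore, Bowtie2, STAR, RSEM and DESeq2 were used with mm10; their roles, order, versions and the annotation are not given in the sources used here. Per the labels' protocols the libraries were made from mRNA. Whole reads could not be recovered from the deposited values (20.5% to 55.8% lay within 5% of a whole read), so no count test was run. Each table lacks the lowest rows (lowest row means 1.64 to 5.52), and the last line of 1 table was broken off and left out.

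After adding 1 and taking log2, values were fitted with limma 3.58.1 under R 4.3.3 (trend, two-sided, all groups of a table in 1 fit, Benjamini-Hochberg over all genes with a mean of at least 10). Tests stayed within a table. Sums, shares and values per kilobase of exonic length carry no test. Lists covered other 2-cell-stage genes, regulators, NuRD, and pluripotent, primitive endoderm, trophoblast, germline and fibroblast markers. Members and lists were chosen with earlier results of these data known. Named were members with a group mean of at least 50 or called outside the Chd4 comparison, and up to 4 called genes per list with a mean of at least 100 and the largest differences; members, list genes and neighbours named beyond this were chosen after their values were seen. Exon sequences came from GENCODE M21 and promoters from RefSeq, with Biopython 1.88. The fit was tested on simulated data. Alternatives were a pseudocount of 10, no filter, quantile normalisation, a replicate block, only the compared groups, and leaving out each library.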

Additional observations from a re-analysis of the deposited data

Results flagged for a closer look

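For 8 pairs of values, every library of one set lay on one side of its control and every library of the other set on the opposite side; none of these differences was tested, and all are log2 differences of value + 1. After 12 h of CTCF loss the Zscan4 sum differed from 0 h by -0.65 in the serum-free set and by 0.19 in the serum set. Zscan4-ps2 differed by -0.67 and 0.24, and Zscan4a by -0.55 and 1.14, between the same sets. The serum-free and serum sets were normalised in separate tables.

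After RAD21 loss the Zscan4 sum differed from the same 0 h libraries by 0.40 at 12 h and by -0.48 at 24 h. In the overexpression set, Zscan4c differed with IAA by 0.66 in the control, -0.54 in cells with wild-type CTCF and 0.68 in those with mutated CTCF. The Zscan4 sum differed by -0.71 in the control and 0.69 with mutated CTCF, and Zscan4f by -1.495 and 2.495. The Zscan4f values rest on levels of 0 to 25.4 normalised counts and the sums on 18.4 to 47.3, in a set in which titles and treatment labels of 4 libraries disagree.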

How the results depend on the processing

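The number of members called kept its value in each comparison with the replicate number as a block (16 with the Chd4 hairpin, 2 and 5 at 12 h and 24 h of CTCF loss, 1 between 12 h and 24 h of RAD21 loss, 0 in the others). Same-numbered libraries did not deviate together over the genes tested (correlations -0.0634 to 0.102). With 2 libraries per group this cannot show that the numbers carry no shared culture or batch. With quantile normalisation the count at 12 h of CTCF loss was 1 in place of 2; the cause was not tested. At 24 h it was 6 with a pseudocount of 10 or only the compared groups. Leaving out each library gave 13 to 16 members for the Chd4 hairpin, 0 to 1 at 12 h and 1 to 4 at 24 h of CTCF loss, and 0 to 0 between 12 h and 24 h of RAD21 loss; the lone library left is assumed to vary like the others. No called difference of a member, Dppa2, Dppa4, Ctcf, Rad21 or Chd4 changed sign under these alternatives. The same held for the list genes named by the rule above, each in its own comparison. List genes and neighbours named beyond that rule were not run through the alternatives. Low levels and 2 libraries per group limit what can be seen for single copies.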
